A study of Homo sapiens with 8 samples.

Results

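Adenylate kinases transfer a phosphate group between adenine nucleotides, turning ADP molecules into ATP and AMP and back, and so set how much AMP a cell makes when its ATP is used. The isoforms differ mainly in where they work: AK1 and AK5 in the cytosol, AK3 and AK4 in the mitochondrial matrix, and AK6 in the nucleus. AMP made in this way is read by AMP-activated protein kinase (AMPK), and AK4 is known as a target gene of the hypoxia-inducible factors (HIF). The genes described here are AK1, AK3, AK4, AK5 and AK6, found by their symbols in a table of 60710 gene rows. The family was chosen by the difference of AK4 between TNF-treated and untreated cells in these same libraries, so the TNF values of these 5 genes are given as a description, without a test. All 5 passed the filter on low counts and were among the 16186 genes fitted.

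A375 cells, a line grown from a human melanoma, received 50 ng/mL human recombinant TNF for 24 h (TNF) or were left without it (NT). Polyadenylated RNA was sequenced from 4 independent experiments, which gave 4 libraries per group. Each group is the same cell line in culture, and a replicate number marks the TNF and NT libraries of the same experiment. P-values given below therefore measure the spread between these experiments with A375 only.

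The libraries held 30989787 to 44373296 expected counts, the authors' estimates of reads per gene. Levels are given as CPM, counts relative to the library total, after scaling between libraries by the trimmed mean of M-values (TMM). Of 10 melanocytic markers, 7 passed the filter on low counts. Summed levels were 2238 to 2594 CPM in TNF and 1818 to 2133 CPM in NT. SOX10 (1176.6 CPM in TNF and 1024.8 CPM in NT on average) and CSPG4 (1122.5 and 824.5 CPM) carried most of this sum. MITF averaged 22.0 CPM in TNF and 21.0 CPM in NT. PMEL (0.46 CPM in both groups) and MLANA (0.39 CPM in TNF and 0.35 CPM in NT) were low. TYR, DCT and TYRP1, the pigment enzyme genes, were at or near 0. S100B fell with TNF (log2 fold change -2.50) and CSPG4 rose (0.45). Among markers of other cells, PTPRC and CD3E were at or near 0, while CD68, which leukocytes share with many other cells, rose (1.26) and carried the leukocyte sum of 42.2 to 72.2 CPM in TNF and 21.1 to 27.2 CPM in NT. PECAM1 (2.84) and KRT5 (3.02) rose at means under 3 CPM in both groups and KRT14 fell (-1.12), all at an adjusted p under 0.05 in edgeR. VWF, another endothelial marker, averaged 0.226 CPM in TNF and 0.681 CPM in NT (log2 fold change -1.55, adjusted p = 0.0514), and CDH5 0.113 CPM in TNF and 0.166 CPM in NT. DCN rose as well, with 1.48 CPM in TNF and 0.550 CPM in NT on average, a call that was lost without NT replicate 2 and without TNF replicate 4, NT replicate 2 and NT replicate 4 together. The fibroblast markers LUM (-0.79, adjusted p = 0.399), COL1A1 (-0.36, adjusted p = 0.310) and PDGFRB (0.11, adjusted p = 0.747) were not past the threshold in edgeR. Summed levels were 2.12 to 3.43 CPM in TNF and 0.825 to 1.80 CPM in NT for the endothelial markers, 8.54 to 11.9 CPM in TNF and 16.2 to 22.4 CPM in NT for the epithelial ones, and 12.5 to 21.9 CPM in TNF and 11.7 to 21.5 CPM in NT for the fibroblast ones. The part of these markers in the results below was not tested. In bulk RNA, fewer cells that express a gene and less of its RNA per cell cannot be told apart.

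Over all genes, edgeR's quasi-likelihood test with Benjamini-Hochberg adjustment at 0.05 called 9.9% of the 16186 lower and 14.5% higher with TNF, that is 1603 and 2345 genes. With the experiment as a replicate block 2946 were lower and 3451 higher. Upper-quartile factors gave 2196 lower and 2045 higher, and library totals 2514 lower and 1925 higher, so the split between the directions depended on the scaling. The 4 TNF libraries all lay below the 4 NT libraries for 11.7% of the genes and all above them for 15.6%. AK4 and AK5 were among the genes called lower and among those with all TNF libraries below all NT libraries, AK1, AK3 and AK6 were in neither, and none of the 5 was called higher. Since the family was taken from this contrast, nothing is read from these counts.

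AK4, the matrix isoform whose level is known to follow HIF activity, stood far lower in TNF-treated cells. The gene (ENSG00000162433.15) lies at chr1:65147549-65232145 on the plus strand (GRCh38, GENCODE annotation), and its canonical transcript has 5 exons. Its level was 8.84, 7.61, 9.59 and 9.84 CPM in TNF libraries 1 to 4, against 52.0, 52.2, 47.5 and 47.7 CPM in NT libraries 1 to 4. The highest TNF library was thus far below the lowest NT library. The means were 8.97 ± 0.998 CPM in TNF and 49.9 ± 2.60 CPM in NT (SD, n = 4 each). These values rest on 248 to 414 expected counts per library in TNF and 1504 to 2433 in NT. The log2 fold change was -2.47 (SE 0.096, 95% interval -2.69 to -2.26), a level 5.56-fold lower in TNF, and the 4 experiments taken as pairs gave a mean log2 difference of -2.47 ± 0.23 (SD). By log2 fold change AK4 stood at place 39 of the 1603 genes called lower.

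The promoter of AK4 is shown because AK4 is known as a HIF target, and that of AK5 because AK5 is the other member with no overlap between the groups. RefSeq on GRCh38.p14 gives 12 promoter windows, each the 250 bases before an annotated start, for the 5 members, all of which matched. Capitals mark the HIF core motif, ACGTG or GCGTG read on both strands, and both sequences run 5′ to 3′ on the plus strand, from chr1:65147302-65147551 for AK4 and from chr1:77281769-77282018 for AK5.
AK4: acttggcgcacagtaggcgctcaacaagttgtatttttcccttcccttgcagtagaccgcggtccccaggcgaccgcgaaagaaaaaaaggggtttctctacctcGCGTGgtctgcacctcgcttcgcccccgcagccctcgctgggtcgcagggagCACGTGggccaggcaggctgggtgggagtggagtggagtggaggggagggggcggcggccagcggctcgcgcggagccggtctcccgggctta
AK5: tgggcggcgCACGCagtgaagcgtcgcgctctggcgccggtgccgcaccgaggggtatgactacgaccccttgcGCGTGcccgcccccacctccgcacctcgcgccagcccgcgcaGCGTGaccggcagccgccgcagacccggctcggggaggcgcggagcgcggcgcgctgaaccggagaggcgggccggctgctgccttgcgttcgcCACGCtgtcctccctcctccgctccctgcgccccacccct
The AK4 window held the motif at 145, 93 and 92 bases before the start. The matches at 93 and 92 bases are the 2 strands of a single CACGTG, the E-box, which holds ACGTG in either direction. The AK5 window held the HIF core at 241, 176, 134 and 40 bases before the start.

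The windows of other members held the motif too. It was in 8 of the 12 windows, namely 3 of 4 for AK4, 2 of 2 for AK5, 2 of 2 for AK6, 1 of 2 for AK1 and 0 of 2 for AK3, against 43.2% of all 35114 promoter windows. The E-box was in 1 window of AK4 and 1 of AK6, and in 6.35% of all windows. The kappa B motif, the recognition sequence of NF-kappa B, was in 0 of the 12 and in 9.96% of all windows on either strand. These matches say only which letters are present in the windows.

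AK3, the other matrix isoform, which uses GTP to phosphorylate AMP, had levels that overlapped between the groups. Its values were 21.84, 20.94, 18.74 and 22.26 CPM in TNF libraries 1 to 4, against 24.58, 22.16, 19.99 and 20.85 CPM in NT libraries 1 to 4. The means were 20.9 ± 1.57 CPM in TNF and 21.9 ± 2.0 CPM in NT (SD, n = 4 each), and the log2 fold change was -0.07 (SE 0.094, 95% interval -0.27 to 0.14). AK3 (ENSG00000147853.17) lies at chr9:4709556-4742043 on the minus strand, with 5 exons.

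**Figure D1:**
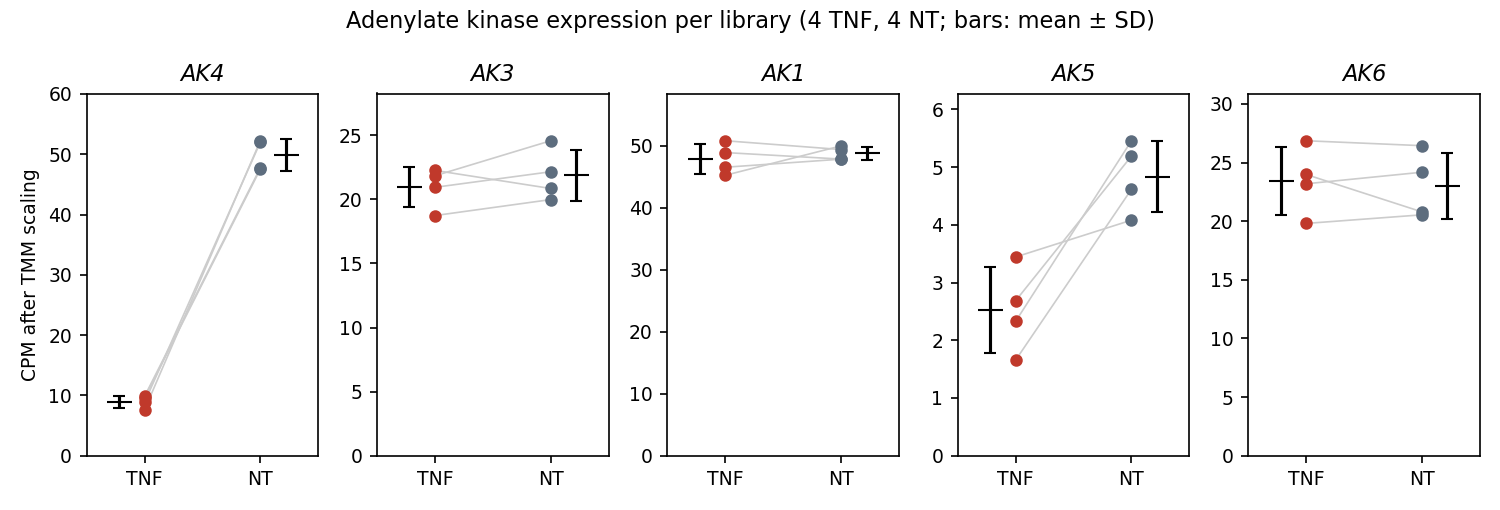
CPM after TMM scaling (y axis, linear, from 0, a scale of its own for each gene) of the 5 genes in 4 TNF libraries (left in each panel) and 4 NT libraries (right), with black bars for mean ± SD and grey lines joining libraries of the same experiment. AK4 lies at 7.61 to 9.84 CPM in TNF and 47.5 to 52.2 CPM in NT, AK5 is lower in TNF in all 4 experiments, and AK3, AK1 and AK6 overlap.

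With AK4 at a lower level in TNF and AK3 overlapping between the groups, their proportions differed. Expressed as counts per kilobase of merged exons, which allows genes of different length to be compared, AK4 made up 19.0, 17.4, 22.9 and 20.4% of the sum of AK3 and AK4 in TNF libraries 1 to 4, against 55.1, 57.8, 58.0 and 57.0% in NT libraries 1 to 4. AK3 was thus the larger of the pair in every TNF library and AK4 the larger in every NT library. The mean share of AK4 was 19.9% ± 2.32 in TNF and 57.0% ± 1.31 in NT (SD, n = 4 each), and the ratio of AK4 to AK3 was 0.250 ± 0.0365 in TNF and 1.33 ± 0.0691 in NT. This ratio is formed within a library and does not depend on the scaling between libraries. With the longest transcript in place of all exons as the length, the share was 20.6% in TNF and 57.9% in NT.

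**Figure D2:**
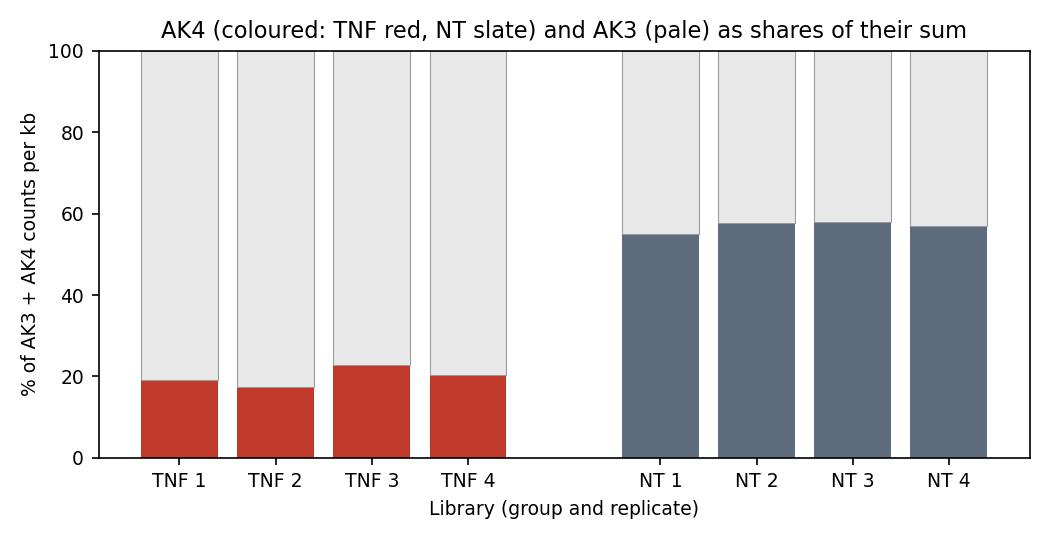
Share of AK4 (coloured) and AK3 (pale) in the sum of their counts per kilobase of merged exons (y axis, percent) for each library (x axis), TNF on the left and NT on the right. The AK4 share is 17.4 to 22.9% in the TNF libraries and 55.1 to 58.0% in the NT libraries.

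AK1, the main cytosolic isoform of muscle, brain and red cells, did not separate the groups. It measured 46.5, 45.2, 48.9 and 50.8 CPM in TNF libraries 1 to 4, against 47.8, 50.0, 47.8 and 49.4 CPM in NT libraries 1 to 4. The means were 47.9 ± 2.48 CPM in TNF and 48.8 ± 1.09 CPM in NT (SD, n = 4 each), with a log2 fold change of -0.03 (SE 0.066, 95% interval -0.17 to 0.12). The spread between TNF libraries was larger than the difference between the means. AK1 (ENSG00000106992.19) lies at chr9:127866486-127877675 on the minus strand, with 7 exons.

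AK5, a cytosolic isoform best known from brain, was the lowest of the 5 and the second whose groups were apart. The gene (ENSG00000154027.19) lies at chr1:77282019-77559966 on the plus strand, with 14 exons. Its level was 3.44, 1.66, 2.69 and 2.33 CPM in TNF libraries 1 to 4, against 4.08, 4.62, 5.19 and 5.46 CPM in NT libraries 1 to 4. The groups did not overlap, but experiment 1 had the highest TNF value and the lowest NT value, which lay close together. The means were 2.53 ± 0.744 CPM in TNF and 4.84 ± 0.614 CPM in NT (SD, n = 4 each), and the log2 fold change was -0.93 (SE 0.22, 95% interval -1.41 to -0.45), or 1.90-fold lower in TNF. Only 54 to 120 expected counts per library in TNF and 165 to 191 in NT stand behind these levels, so AK5 is measured less precisely than AK4. In TNF replicate 4, NT replicate 2 and NT replicate 4, ribosomal, 7SK and 7SL RNA together took 0.0119 to 0.0124% of the counts. In the other 5 libraries they took 0.0023 to 0.0041%. The 3 kinds of RNA were only counted together, and these 3 libraries are called those with more ribosomal RNA below for short. Without these 3 libraries the log2 fold change of AK5 was -0.83, and AK5 was no longer among the genes called lower.

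AK6, a nuclear protein with a role in the maturation of the small ribosomal subunit, did not separate the groups either. It measured 19.8, 24.0, 23.2 and 26.9 CPM in TNF libraries 1 to 4, against 20.5, 20.8, 24.2 and 26.4 CPM in NT libraries 1 to 4. Experiment 4 was the highest and experiment 1 the lowest in both groups. The means were 23.5 ± 2.90 CPM in TNF and 23.0 ± 2.84 CPM in NT (SD, n = 4 each), and the log2 fold change was 0.03 (SE 0.12, 95% interval -0.23 to 0.29). AK6 (ENSG00000085231.14) lies at chr5:69350984-69370013 on the minus strand and shares 7988 bases of this stretch, on the same strand, with TAF9, which encodes a subunit of the general transcription factor TFIID. Reads from exons that both genes use were divided between them by the authors' estimation, so the AK6 level is uncertain.

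Of 3 other adenylate kinases followed, 1 was called. AK7, an isoform of cilia and sperm flagella, was near the detection limit, with 0.861, 0.890, 0.301 and 0.874 CPM in TNF libraries 1 to 4, against 0.235, 0.164, 0.346 and 0.254 CPM in NT libraries 1 to 4. It rose by the test (log2 fold change 1.53, SE 0.41, adjusted p = 0.0189 from edgeR), but TNF library 3 lay among the NT values, and the call was lost when TNF replicate 1, TNF replicate 2, NT replicate 1 or NT replicate 2 was left out, without the fourth experiment, and when the 3 libraries with more ribosomal RNA were omitted. AK8 averaged 0.389 CPM in TNF and 0.255 CPM in NT, and AK9 0.694 CPM in TNF and 0.592 CPM in NT, with log2 fold changes of 0.58 (SE 0.41, adjusted p = 0.363) and 0.22 (SE 0.38, adjusted p = 0.734) that were not past the threshold in edgeR.

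Ordered by level per kilobase of merged exons, the 5 members in TNF cells ran AK1 at 18.5, AK6 at 10.96, AK3 at 4.77, AK4 at 1.18 and AK5 at 0.364 CPM per kb. In NT cells the order was AK1 at 18.8, AK6 at 10.7, AK4 at 6.58, AK3 at 4.98 and AK5 at 0.696 CPM per kb. AK4 and AK3 thus changed places, and in each group no 2 neighbours in the order had library ranges that overlapped. AK7, AK8 and AK9 stayed at or under 0.147 CPM per kb on average in both groups. Of the summed level per kb of these 8 genes, AK4 held 3.28% ± 0.291 in TNF and 15.7% ± 1.03 in NT (SD, n = 4 each).

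**Figure D3:**
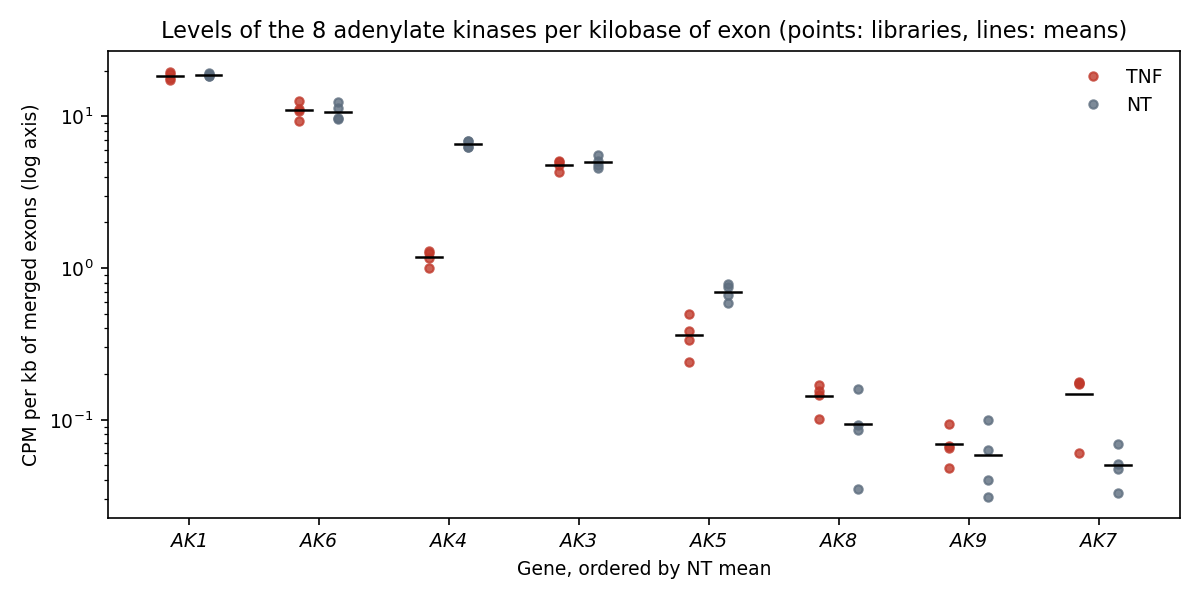
CPM per kilobase of merged exons (y axis, log scale) of 8 adenylate kinases, ordered by their NT mean, with a point per library and a line for the mean, TNF left of NT for each gene. AK4 averages 1.18 in TNF and 6.58 in NT and lies below AK3 only in TNF, while AK1 and AK6 hold the top 2 places among the 5 members in both groups.

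AK4 has a processed pseudogene, AK4P1, whose sequence is nearly that of the AK4 coding region, so reads can fit both. AK4P1 lies at chr17:31345519-31346190 on the plus strand (GRCh38), within the gene NF1, and 670 of its 672 bases equal the AK4 coding sequence. The stretch below, positions 118 to 237 of both, is shown because it holds 1 of the 2 differences, in capitals. It runs 5′ to 3′, and for AK4P1 comes from chr17:31345636-31345755.
AK4: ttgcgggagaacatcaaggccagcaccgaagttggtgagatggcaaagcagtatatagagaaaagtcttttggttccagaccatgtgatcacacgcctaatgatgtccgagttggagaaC
AK4P1: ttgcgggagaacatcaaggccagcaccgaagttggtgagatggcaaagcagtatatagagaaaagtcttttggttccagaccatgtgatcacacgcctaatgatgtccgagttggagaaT
Of the 623 windows of 50 bases in AK4P1, 83.9% occur unchanged in the canonical AK4 transcript of 6845 bases, but only 7.7% of the AK4 windows occur in AK4P1.

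Expected counts given to AK4P1 were 33.2, 32.1, 46.3 and 24.2 in TNF libraries 1 to 4, against 157.6, 127.1, 123.2 and 124.5 in NT libraries 1 to 4. All TNF libraries were below all NT libraries, as for AK4, and the log2 fold change was -1.95 (SE 0.17). AK4P1 took 9.65% ± 1.7 of the counts of both genes in TNF and 6.88% ± 0.832 in NT (SD, n = 4 each). Since reads from the shared sequence cannot be told apart, the 2 values do not stand for separate transcripts. With the counts of both added, the level was 9.91 ± 0.964 CPM in TNF and 53.5 ± 2.31 CPM in NT, a ratio of 5.40, so the way reads were divided between them changed the AK4 difference little. NF1 itself averaged 107.8 CPM in TNF and 97.9 CPM in NT (log2 fold change 0.14, adjusted p = 0.373 from edgeR), and EVI2A, the nearest gene before AK4P1, rose (1.54, adjusted p = 0.000411), while RAB11FIP4 after it was not past the threshold (-0.32, adjusted p = 0.345). Of 13 adenylate kinase pseudogenes in the table, 9 were at 0 in all libraries, and no other than AK4P1 had more than 4.94 counts in a library.

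Neither gene beside AK4 was called lower. JAK1, a tyrosine kinase gene that lies on the other strand 79795 bases before AK4, averaged 119.98 ± 10.6 CPM in TNF and 101.4 ± 7.33 CPM in NT (SD, n = 4 each; log2 fold change 0.24, adjusted p = 0.0574 from edgeR, and 0.00273 with the replicate block). DNAJC6, an auxilin gene 16074 bases after AK4, averaged 24.0 ± 0.696 CPM in TNF and 26.9 ± 2.18 CPM in NT (log2 fold change -0.17, adjusted p = 0.170 from edgeR, and 0.0673 with the replicate block). Its TNF libraries all lay below its NT libraries, as for 11.7% of all genes tested. RPS29P7, a pseudogene inside AK4, was at 0 in all libraries. Beside AK5, PIGK, which acts in attaching GPI anchors to proteins, fell (log2 fold change -0.36, adjusted p = 0.00737 from edgeR) and ZZZ3, which encodes a subunit of a histone acetyltransferase complex, was not past the threshold (-0.04, adjusted p = 0.721).

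Around AK6, TAF9 averaged 59.7 ± 5.31 CPM in TNF and 66.6 ± 4.72 CPM in NT (SD, n = 4 each), and a log2 fold change of -0.16 was not past the threshold in edgeR (adjusted p = 0.212, and 0.0381 with the replicate block). Both TAF9 and JAK1 were also past it in several other alternatives, among them without TNF replicate 4 for TAF9 (adjusted p = 0.0366) and without TNF replicate 1 or NT replicate 4 for JAK1 (0.0442 and 0.0493). RAD17, which overlaps AK6 on the other strand and encodes a checkpoint clamp loader, averaged 16.9 CPM in TNF and 18.5 CPM in NT (log2 fold change -0.12, adjusted p = 0.393). GTF2H2C, the nearest tested gene after AK6, fell (-0.45, adjusted p = 0.00686 from edgeR), though it has near-identical copies with which reads may be divided, and CCDC125 before it was not past the threshold (-0.46, adjusted p = 0.158, and 0.00978 with the replicate block). The tested genes around AK1 and AK3 were not past the threshold either, namely ENG (-0.06), ST6GALNAC6 (-0.35), and AL157935.2, which overlaps AK1 on the same strand (0.88), and CDC37L1 (-0.09) and RCL1 (-0.14), with adjusted p between 0.0988 and 0.677 in edgeR. With the replicate block ST6GALNAC6, a sialyltransferase gene, was past it (adjusted p = 0.00585), and it was without the fourth experiment (0.0352).

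Genes that make, use or sense the same nucleotides were followed together with HIF subunits and targets, in 9 lists of 76 genes. Of these, 66 were tested: 12 rose, 5 fell and 49 were not past the threshold in edgeR. The shares over all genes were 14.5% higher and 9.9% lower. The HIF list alone held 23 of the tested genes, with 7 higher and 0 lower. For the 9 lists together the replicate block gave 16 higher and 8 lower. In the same lists 3 were lower without TNF replicate 2, TNF replicate 3, NT replicate 1 or NT replicate 2. The other nucleoside monophosphate kinases (CMPK1, CMPK2, GUK1 and DTYMK) and the 3 subunits of succinyl-CoA ligase, the matrix enzyme that makes GTP or ATP in the citric acid cycle, had 0 of 4 and 0 of 3 called. Of 6 nucleoside diphosphate kinases 1 was called: NME4, the mitochondrial form, fell to 92.9 ± 12.04 CPM in TNF, against 119.5 ± 13.0 CPM in NT (SD, n = 4 each; log2 fold change -0.36, adjusted p = 0.0296), with ranges that overlapped. That call was lost when any of TNF replicates 2, 3 and 4 or NT replicates 1, 2 and 3 was left out. CKB, a cytosolic creatine kinase and the only one of 5 tested, averaged 123.5 CPM in TNF and 133.4 CPM in NT (log2 fold change -0.11, adjusted p = 0.387).

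AMPK is the kinase that reads AMP, and 2 of the 8 tested genes of its subunits and upstream kinases fell, with none higher. Over all genes 9.9% were lower and 14.5% higher. PRKAG2, a nucleotide-binding gamma subunit, measured 4.82, 5.83, 6.30 and 5.31 CPM in TNF libraries 1 to 4, against 9.77, 8.47, 10.4 and 9.58 CPM in NT libraries 1 to 4 (log2 fold change -0.78, adjusted p = 0.00107 from edgeR). CAMKK2, a calcium-dependent kinase that activates AMPK, averaged 25.3 ± 1.77 CPM in TNF and 31.9 ± 1.08 CPM in NT (SD, n = 4 each; log2 fold change -0.34, adjusted p = 0.00845 from edgeR). For both genes all TNF libraries lay below all NT libraries. The other 6 tested genes were not past the threshold. Summed levels of the whole AMPK list overlapped, at 296.6 to 318 CPM in TNF and 290.9 to 310.6 CPM in NT.

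The list of AMP synthesis, salvage and breakdown inside the cell also holds nucleotidases that prefer other nucleotides. It had 3 of 11 tested genes higher and 1 lower, beside 14.5% higher and 9.9% lower over all genes. AMPD3, which removes AMP by deaminating it to IMP, rose most: it measured 3.53, 4.88, 3.47 and 5.86 CPM in TNF libraries 1 to 4, against 0.791, 0.820, 0.850 and 0.540 CPM in NT libraries 1 to 4 (log2 fold change 2.55, SE 0.24, adjusted p = 2.9e-05 from edgeR). The lowest TNF library was several times above the highest NT library. ADK, which makes AMP from adenosine, rose to 59.4 ± 10.1 CPM in TNF, against 38.0 ± 6.49 CPM in NT (SD, n = 4 each; log2 fold change 0.65, adjusted p = 0.00788). NT5C2, a cytosolic nucleotidase that prefers IMP and GMP, rose by the test (0.23, adjusted p = 0.0409) and NT5M, a mitochondrial nucleotidase for deoxynucleotides, fell (-0.75, adjusted p = 0.0483). Both of these calls lay near the threshold: that of NT5C2 was lost when any of replicates 1, 2 and 3 of either group was left out and with upper-quartile factors, library totals or no filter, and that of NT5M when any library but TNF replicate 1 was, or when the 3 libraries with more ribosomal RNA were.

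Of the carriers that move adenine nucleotides across the inner mitochondrial membrane, 1 of 7 tested rose and 1 fell. Both exchange ATP-magnesium for phosphate under the control of calcium. SLC25A24 averaged 81.5 ± 6.55 CPM in TNF and 60.6 ± 5.48 CPM in NT (SD, n = 4 each; log2 fold change 0.43, adjusted p = 0.00475 from edgeR). SLC25A23 averaged 17.3 ± 1.97 CPM in TNF and 26.0 ± 2.87 CPM in NT (SD, n = 4 each; log2 fold change -0.59, adjusted p = 0.00256 from edgeR). The groups did not overlap in either gene, and the 2 carriers stood on opposite sides.

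HIF subunits and known HIF targets, the class to which AK4 is usually counted, made up 23 tested genes. Of these, 7 rose and none fell, beside 14.5% higher and 9.9% lower over all genes. The 4 with the largest change were PFKFB4, a regulator of glycolysis (61.8 ± 8.97 CPM in TNF and 28.3 ± 2.54 CPM in NT, log2 fold change 1.13, adjusted p = 4.3e-05), P4HA2, a collagen prolyl hydroxylase subunit (47.2 ± 7.47 CPM in TNF and 22.4 ± 2.41 CPM in NT, 1.07, adjusted p = 0.000106), EGLN1, the prolyl hydroxylase that marks HIF for degradation (113.7 ± 8.09 CPM in TNF and 69.2 ± 5.19 CPM in NT, 0.72, adjusted p = 9.1e-05), and ANKRD37, an ankyrin repeat gene (4.73 ± 0.846 CPM in TNF and 2.99 ± 0.214 CPM in NT, 0.66, adjusted p = 0.0141), all from edgeR with SD over n = 4. The call of ANKRD37 was lost without the 3 libraries with more ribosomal RNA. The other 16 genes of the list were not past the threshold in edgeR. Among them EGLN3 (-0.62), PFKFB3 (-0.27), PDK1 (-0.24) and VEGFA (-0.23) had negative log2 fold changes. EPAS1 (0.33), ADM (0.20) and P4HA1 (0.19) had positive ones. HIF1A itself averaged 247.8 ± 25.6 CPM in TNF and 225.7 ± 11.6 CPM in NT (log2 fold change 0.13, SE 0.085, adjusted p = 0.302, and 0.0402 without TNF replicate 4). AK4, at -2.47, is in none of these lists. The median log2 fold change was 0.14 in the HIF list, 0.58 in the other adenylate kinases, 0.17 in the monophosphate kinases, 0.09 in the diphosphate kinases, -0.08 in the AMPK list, 0.04 in the AMP enzymes, 0.02 in the carriers and 0.01 in succinyl-CoA ligase, beside -0.004 over all genes tested.

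**Figure D4:**
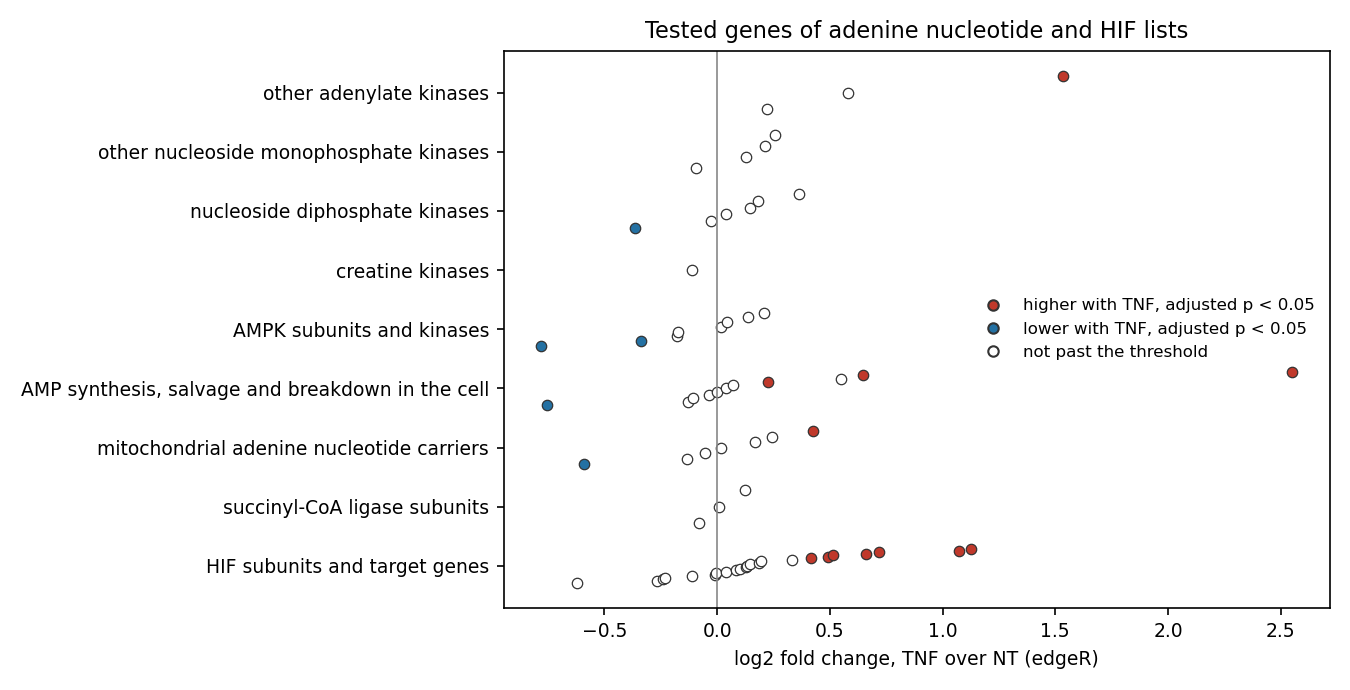
Log2 fold change, TNF over NT, from edgeR (x axis) of the tested genes in 9 lists (rows), a point per gene, red where higher and blue where lower with TNF at an adjusted p under 0.05 and open where not past that threshold. AMPD3 lies farthest right at 2.55, PRKAG2 farthest left at -0.78, and of the HIF list 7 genes are red and none blue.

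The genes most like AK4 were sought among 12361 genes whose log2 CPM averaged 1 or more, by Pearson's r of log2 CPM over the 8 libraries, which share the split between TNF and NT, so that r mostly follows that split. SORD, which encodes sorbitol dehydrogenase, had the highest r of 0.996, followed by FXYD3, a regulator of the sodium pump (0.994), RAMP1, a partner of the calcitonin receptor-like receptor (0.993), HAPLN1, a link protein of hyaluronan (0.991), and ITPK1, an inositol phosphate kinase (0.990). Of the 12361 genes, 212 had an r over 0.95. FXYD3 was closest to AK4 in level and size of difference, with 8.71 ± 1.21 CPM in TNF and 48.9 ± 8.92 CPM in NT (SD, n = 4 each) and a log2 fold change of -2.49. SORD had 72.4 ± 2.05 CPM in TNF and 119.3 ± 3.45 CPM in NT, with a log2 fold change of -0.72, so a like pattern did not mean a like size of difference. RAMP1 had a log2 fold change of -1.58, HAPLN1 of -3.08 and ITPK1 of -0.55.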

How the data were processed

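Genes and lists were chosen with earlier results of these data known. Per the labels, the authors made stranded libraries from polyadenylated RNA, and Bowtie2 and RSEM 1.2.25 are named in the submitters' processing notes, with GRCh38. The Bowtie2 version, read filters and use of strand were not given in the sources used here. Values were deposited as unnormalized expected counts by gene, one column a library. The records of the 4 NT samples hold the counts of another NT library than their titles name, so the series table was used, whose columns match the titles.

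Expected counts were rounded (0.00585% of the total changed), filtered by edgeR (minimum count 10, minimum total 15) and scaled by TMM. TNF was compared with NT in edgeR 4.0.16 (R 4.3.3, quasi-likelihood, robust, treatment only), with Benjamini-Hochberg adjustment over 16186 genes and a threshold of 0.05. The test was checked on simulated counts, drawn without differences between experiments, so the check does not cover such differences. The replicate number is the experiment date in the titles, by which the libraries are paired. Libraries of the same number deviated together from their group means (correlations of 0.35, 0.17, 0.24 and 0.46). Those of different numbers had correlations of -0.4 to 0.23. The highest was TNF replicate 3 with NT replicate 1, so for experiment 3 the match hardly stood out. DESeq2 1.42.0 (the authors' tool), limma 3.58.1 voom, other scalings and filters, the single-sample counts, the replicate block and each library left out were alternatives. Omission of the fourth experiment and of 3 libraries with more ribosomal RNA was chosen after seeing the data. Genes named are the members, other adenylate kinases, all called genes of lists of up to 10 genes and up to 4 of longer lists with the largest change, overlapping and flanking genes, and the 5 genes most correlated with AK4. HIF1A, CKB, and the kinases and HIF-list genes with no call were added after their values were seen. Log2 CPM used a prior count of 2. Lengths and positions come from GENCODE on GRCh38, a later release than the authors used, and promoters from RefSeq (GRCh38.p14). The planned comparison of the members' proteins was not run. A member of the adenylate kinase list and a marker are not reported here.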

Additional observations from a re-analysis of the deposited data

Results flagged for a closer look

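In 58 groups of 4 libraries looked at (members, other adenylate kinases, AK4P1 and the named genes of the lists, markers included), 3 held a single library far from the other 3, and about 2.9 would by chance, at 1 in 20 groups. AK7 was at a log2 CPM of -1.49 in TNF replicate 3, against -0.13 to -0.08 in the others, which rests on 13 counts. AMPD3 was at -0.75 in NT replicate 4, against -0.24 to -0.14 in the other NT libraries. NT5M was at 1.72 in NT replicate 1, against 1.17 to 1.25 in the other NT libraries. None of the 5 members described in full had such a library.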

How the results depend on the processing

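Over 19 alternatives, given for the 5 members as values without a test, AK4 had log2 fold changes of -2.56 to -2.41 (-2.52 to -2.41 with each library left out in turn). One of them, the single-sample counts, holds the same libraries with the NT names exchanged. The treatment-only fit therefore had to give the main values there, so that alternative adds no check. AK5 ran from -1.12 to -0.78 (the same range with each library left out). AK6 ranged from -0.05 to 0.10, and its sign turned with upper-quartile factors, with library totals, without TNF replicate 4, NT replicate 1 or NT replicate 2, and when the 3 libraries with more ribosomal RNA were omitted. AK1 moved to -0.085 with upper-quartile factors and -0.11 with library totals, and its NT level to 50.2 CPM with library totals. With the longest transcript as length, levels became 21.8 CPM per kb in TNF and 22.2 in NT for AK1, 7.13 in NT for AK4, 0.644 in TNF and 1.23 in NT for AK5, and 14.4 in TNF and 14.1 in NT for AK6, with the order of the 5 unchanged. Genes called lower over the whole table numbered 2514 with library totals and 2946 with the replicate block, against 1603, and 1110 to 1896 with a library left out, while those called higher ran from 1880 to 2521 there. Genes called lower in the 9 lists numbered 8 with upper-quartile factors, 10 with library totals and 8 with the replicate block, against 5, and 3 to 5 with a library left out, with 8 to 14 higher. The paired fit with the replicate block gave AK4 -2.48, AK5 -0.95, AK1 -0.03, AK3 -0.06 and AK6 0.03, and changed the calls of JAK1, TAF9, ST6GALNAC6 and CCDC125. The sign also turned for AL157935.2, to -0.16 with limma voom, and ZZZ3, to 0.015 without the 3 libraries with more ribosomal RNA, both far from the threshold. The cause of these shifts was not tested. Counts of AK5, AK7, AK8 and AK9 limit how small a difference can be seen. The planned alignment of the members' proteins and search for the P-loop were not run.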
